A study of Mus musculus with 8 samples.

Results

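The core circadian clock of the liver was examined through 10 genes: *Arntl*, *Clock*, *Per1*, *Per2*, *Per3*, *Cry1*, *Ciart*, *Nr1d1*, *Nr1d2* and *Dbp*. They were taken by gene symbol from a table of 24940 genes, in which all 10 were present and all 10 passed the filter on low counts. Liver RNA of 4 FXRKO males and 4 BCL6LKOFXRKO males of strain C57BL/6 was sequenced, and the mice are numbered here as FXRKO livers 1 to 4 and BCL6LKOFXRKO livers 5 to 8, by library number. All 8 mice lacked FXR (the bile acid receptor, gene *Nr1h4*) in the whole body and carried floxed *Bcl6* alleles, and the BCL6LKOFXRKO mice also carried Alb-Cre, a Cre driven by the albumin promoter that deletes *Bcl6*, a transcriptional repressor, in hepatocytes. Cre itself, the loss of *Bcl6* and the liver state that comes with the genotype cannot be told apart, and no liver with intact FXR was analysed here. Age and hour of harvest are not given in the sources used here. The study's mice were kept under a light:dark cycle. Its methods name ad libitum feeding or a 4-hour fast unless otherwise stated, and which applied to these 8 livers is not given there.

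The clock is a feedback loop. BMAL1, the product of *Arntl*, pairs with CLOCK and activates genes that carry E-boxes, among them the *Per* and *Cry* genes, *Ciart*, *Nr1d1*, *Nr1d2* and *Dbp*. PER and CRY proteins return to the nucleus and inhibit that pair, the *Ciart* product CHRONO also represses it, and the REV-ERB proteins (*Nr1d1* and *Nr1d2*) repress *Arntl*. DBP, the albumin D-box binding protein, activates genes with D-boxes, *Per* genes included. In mouse liver most of these transcripts swing widely over the day, with *Arntl* and *Clock* high when *Dbp* and the *Per* genes are low.

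The binding letters of this loop are shown in the DNA just upstream of 4 members, chosen because their windows hold E-box or D-box letters. RefSeq promoter windows of 300 bases (250 before and 50 after a start site, GRCm38.p6, the same coordinates as mm10) were found for 9 of the 10 genes, 13 windows in all. No window was found for *Per2*, so its promoter was not searched for any of the motifs. The 250 bases before the start are given 5′ to 3′ on the strand of the gene. Capitals mark CACGTG (the E-box) or its variant CACGTT, read on either strand (so also as AACGTG), and in *Per3* the D-box letters TTATGTAA. *Ciart* is at chr3:95882229-95882478 on the minus strand, *Cry1* at chr10:85185055-85185304 on the minus strand, *Per1* at chr11:69098699-69098948 on the plus strand and *Per3* at chr4:151044666-151044915 on the minus strand.
Ciart: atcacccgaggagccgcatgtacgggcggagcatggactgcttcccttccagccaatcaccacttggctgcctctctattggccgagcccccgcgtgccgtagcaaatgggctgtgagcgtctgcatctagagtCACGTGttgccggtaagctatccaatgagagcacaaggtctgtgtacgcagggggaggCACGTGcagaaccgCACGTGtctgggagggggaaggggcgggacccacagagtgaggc
Cry1: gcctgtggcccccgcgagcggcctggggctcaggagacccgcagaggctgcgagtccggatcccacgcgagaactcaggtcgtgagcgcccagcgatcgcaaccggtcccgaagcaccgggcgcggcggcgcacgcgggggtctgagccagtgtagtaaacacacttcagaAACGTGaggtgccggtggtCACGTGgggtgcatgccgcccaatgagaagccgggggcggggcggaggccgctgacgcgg
Per1: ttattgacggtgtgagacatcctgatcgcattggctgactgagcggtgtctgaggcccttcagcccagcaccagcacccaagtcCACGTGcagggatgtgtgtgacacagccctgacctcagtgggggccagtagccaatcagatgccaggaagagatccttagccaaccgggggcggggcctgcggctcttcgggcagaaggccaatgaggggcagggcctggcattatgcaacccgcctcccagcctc
Per3: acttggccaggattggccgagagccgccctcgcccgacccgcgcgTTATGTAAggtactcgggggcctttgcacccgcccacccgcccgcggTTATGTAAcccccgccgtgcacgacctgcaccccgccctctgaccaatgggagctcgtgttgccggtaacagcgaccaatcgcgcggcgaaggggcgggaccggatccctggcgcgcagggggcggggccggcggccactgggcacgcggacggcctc
*Ciart* held CACGTG at 3 places, starting 44, 58 and 116 bases before its start. At least 1 CACGTG was present in 7.15% of the 32851 RefSeq windows of this length, and 3 or more in 29 of them (0.0883%). Besides *Ciart*, the windows of *Cry1* and *Per1* held CACGTG, and those of *Cry1* and *Nr1d1* held CACGTT (4.68% of all windows). The D-box letters TTATGTAA or TTACGTAA stood at 2 places in *Per3* (1.06% of windows held them at least once and 0.0244% at 2 or more places).

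The core of the element that REV-ERB and ROR proteins share, TAGGTCA or TGGGTCA, was present in 1 member, *Arntl*, and in 6.45% of all windows. It lies just after the second of the *Arntl* start sites, at chr7:113207530-113207558 on the plus strand, with the core in capitals.
Arntl: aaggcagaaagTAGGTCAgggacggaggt
The cAMP response letters TGACGTCA were in none of the windows found for the members, *Per2* having none (1.79% of all windows). TTCNNNGAA, letters typical of STAT sites and close to those described for BCL6, were in a window of *Dbp* and of *Per1* (8.3% of all windows). The searched motifs did not overlap each other in these windows. A match is only a description of letters in the window, and the motifs were chosen after the members' values had been seen.

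Between 7586241 and 11839503 reads per liver were counted on genes. CPM are counts scaled to a common library size with TMM factors. Called genes are those whose adjusted p stayed under 0.05 in the quasi-likelihood test of edgeR over the 12340 genes that passed the filter. The 50 most counted genes held 31.2% to 32.6% of the counts in FXRKO livers and 41.7% to 45.1% in BCL6LKOFXRKO livers, and scaling by total counts alone shifted the median log2 fold change by -0.16. *Bcl6* was at 56.3, 65.2, 21.2 and 55.6 CPM in FXRKO livers 1 to 4 and at 11.9, 4.61, 5.55 and 7.72 in BCL6LKOFXRKO livers 5 to 8. *Nr1h4* transcripts were still counted in all 8 livers, at 56.7 to 62.6 and 39.4 to 48.1 CPM. The labels name no separate cultures or litters, so p-values cover the spread between these 8 livers.

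*Per2* was the member that differed between the genotypes, and the other 9 did not pass the test. That is 1 of 10 members called, against 29.7% of all tested genes called in either direction and 13.5% called lower, so the members were not called more often than other genes. The median log2 fold change (BCL6LKOFXRKO minus FXRKO) was -0.30 over the members and 0.01 over all tested genes, with 8 members below 0 and 2 above. The livers of the 2 genotypes did not overlap for 1 of 10 members, against 31.3% of all tested genes. Most members lay far apart between livers of the same genotype, and the values are given gene by gene below.

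**Figure D1:**
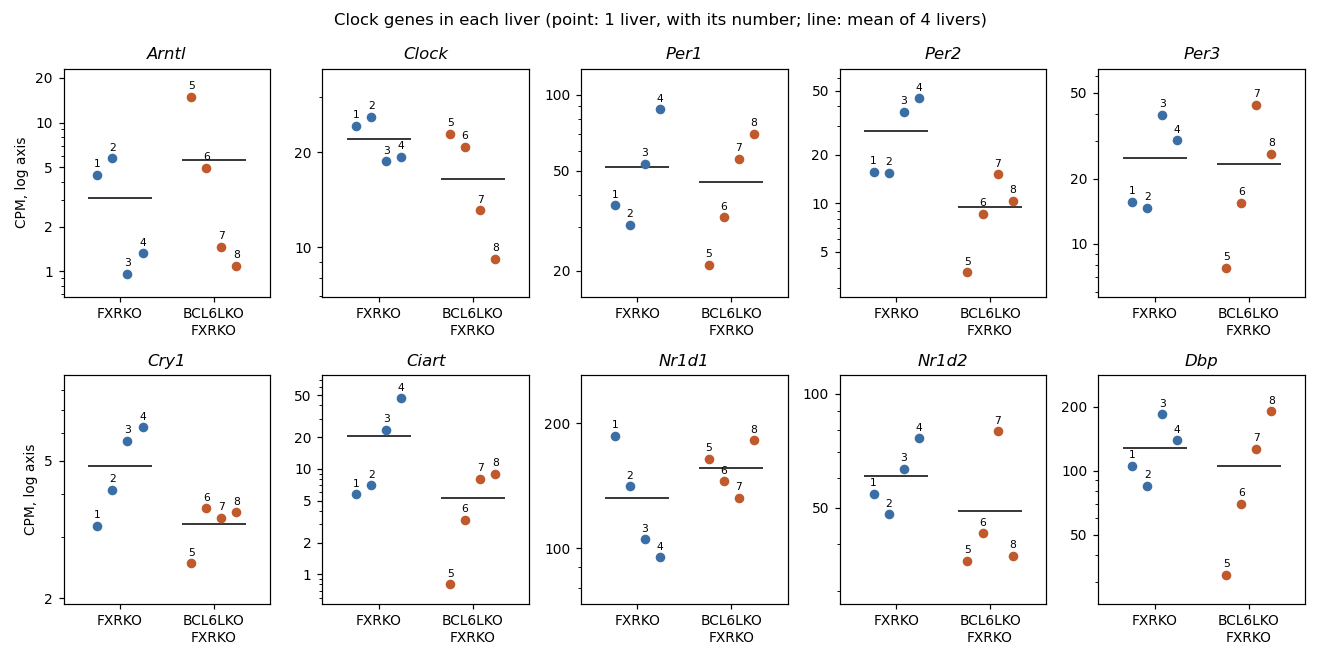
CPM of the 10 clock genes on a log axis, 1 point per liver with the liver's number, FXRKO left and BCL6LKOFXRKO right, and a line at each mean of 4 livers. Only the *Per2* points of the genotypes do not overlap, and within both genotypes the *Arntl* and *Ciart* points lie several-fold apart.

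The activators come first. *Arntl* (NM_007489) lies at positions 113207465 to 113314126 of chromosome 7 in mm10. Its level was 4.47, 5.75, 0.967 and 1.32 CPM in FXRKO livers 1 to 4 and at 14.9, 4.98, 1.46 and 1.09 CPM in BCL6LKOFXRKO livers 5 to 8. Livers 1, 2, 5 and 6 were high and livers 3, 4, 7 and 8 low, so each genotype held both states. The fitted log2 fold change was 0.86 (95% interval -1.33 to 3.05, adjusted p = 0.535), and without liver 5 it was -0.35 (adjusted p = 0.769). The counts were small but apart, 9 in liver 3 (exact Poisson interval 4.12 to 17.1) against 148 in liver 5 (125 to 174). These intervals cover counting error only.

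*Clock* (NM_001289826, positions 76209868 to 76304792 of chromosome 5), which encodes the partner of BMAL1, was at 24.2, 25.9, 18.7 and 19.3 CPM in FXRKO livers and at 22.9, 20.8, 13.1 and 9.17 CPM in BCL6LKOFXRKO livers. Livers 7 and 8 were the lowest of all, livers 3 and 4 the lowest of their genotype, and the genotypes overlapped. Its log2 fold change was -0.42 (95% interval -0.97 to 0.13, adjusted p = 0.228).

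Of the repressors, *Per2* (NM_011066, positions 91415982 to 91459328 of chromosome 1) was at 15.7, 15.4, 36.8 and 44.8 CPM in FXRKO livers and at 3.73, 8.62, 15.1 and 10.4 CPM in BCL6LKOFXRKO livers. The highest BCL6LKOFXRKO liver lay just under the lowest FXRKO liver. The means were 28.2 ± 15 and 9.47 ± 4.7 CPM (SD, n = 4), and the log2 fold change was -1.57 (SE 0.50, 95% interval -2.72 to -0.42, adjusted p = 0.0468). A two-sided exact permutation test over the 8 livers gave p = 0.029, the smallest this design allows, unadjusted for the number of genes. That value follows whenever the 2 genotypes do not overlap, as for 31.3% of all tested genes, so it adds nothing to the lack of overlap. The edgeR call was close to its threshold: *Per2* was called in 8 of 15 alternative fits, with log2 fold changes from -1.89 to -1.25 and adjusted p from 0.0169 to 0.115. It was not called without liver 3 (adjusted p = 0.0984), liver 4 (0.0895), liver 5 (0.0674), liver 6 (0.0946) or liver 8 (0.115), with no filter on low counts (0.0948) or with limma voom (0.0752).

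*Per1* (NM_011065, positions 69098949 to 69109957 of chromosome 11) was at 36.4, 30.5, 53.1 and 87.6 CPM in FXRKO livers and at 21.2, 32.6, 55.8 and 70 CPM in BCL6LKOFXRKO livers. *Per3* (NM_001289878, positions 151003655 to 151044665 of chromosome 4) was at 15.7, 14.7, 39.5 and 30.2 CPM and at 7.76, 15.5, 44 and 26.2 CPM. In both, livers 3 and 4 and livers 7 and 8 were the high livers of their genotype, the reverse of *Arntl*, and the genotypes overlapped widely. The log2 fold change was -0.21 (95% interval -1.26 to 0.84, adjusted p = 0.766) for *Per1* and -0.10 (-1.40 to 1.20, adjusted p = 0.913) for *Per3*, so differences in either direction lie within these intervals.

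*Cry1* (NM_007771, positions 85131700 to 85185054 of chromosome 10), a cryptochrome that inhibits CLOCK and BMAL1, was at 3.23, 4.12, 5.7 and 6.24 CPM in FXRKO livers and at 2.52, 3.64, 3.41 and 3.54 CPM in BCL6LKOFXRKO livers. Livers 2, 3 and 4 were above all BCL6LKOFXRKO livers and liver 1 was not. Its log2 fold change was -0.56 (95% interval -1.10 to -0.03, unadjusted for the number of genes tested), with an adjusted p of 0.105. It passed the threshold without liver 1 (adjusted p = 0.042) and with scaling by total counts alone (0.0355), with a range of 0.0355 to 0.28 over the alternatives.

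*Ciart* (NM_001033302, positions 95878505 to 95882228 of chromosome 3) was at 5.72, 7, 23.4 and 46.5 CPM in FXRKO livers and at 0.806, 3.28, 8.08 and 8.99 CPM in BCL6LKOFXRKO livers. Liver 4 and liver 5 stood 491 counts against 8 apart, and livers 7 and 8 lay just above livers 1 and 2, so the genotypes overlapped. The largest point difference of the 10 genes came with the second widest interval, a log2 fold change of -1.95 (-4.06 to 0.15, adjusted p = 0.146), and no alternative without a covariate that could test it called it (adjusted p from 0.0885 to 0.327).

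The REV-ERB genes varied less. *Nr1d1* (NM_145434, positions 98767932 to 98775377 of chromosome 11) was at 187, 141, 105 and 94.9 CPM in FXRKO livers and at 164, 145, 132 and 182 CPM in BCL6LKOFXRKO livers. Its log2 fold change was 0.24 (95% interval -0.18 to 0.66, adjusted p = 0.38). *Nr1d2* (NM_011584, positions 18204056 to 18239106 of chromosome 14) was at 54.4, 48, 63.2 and 76.3 CPM and at 36.2, 42.7, 79.6 and 37.2 CPM. Liver 7 was the highest of all 8 while the other BCL6LKOFXRKO livers were the lowest. The log2 fold change was -0.31 (-0.87 to 0.26, adjusted p = 0.397), and without liver 7 it was -0.64 (adjusted p = 0.0111).

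*Dbp* (NM_016974, positions 45705247 to 45710203 of chromosome 7) was at 105, 84.8, 184 and 139 CPM in FXRKO livers and at 32.3, 70, 127 and 190 CPM in BCL6LKOFXRKO livers. As for *Per3*, livers 3 and 4 and livers 7 and 8 were the high livers of their genotype. Its log2 fold change was -0.29 (95% interval -1.53 to 0.95, adjusted p = 0.723).

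**Figure D2:**
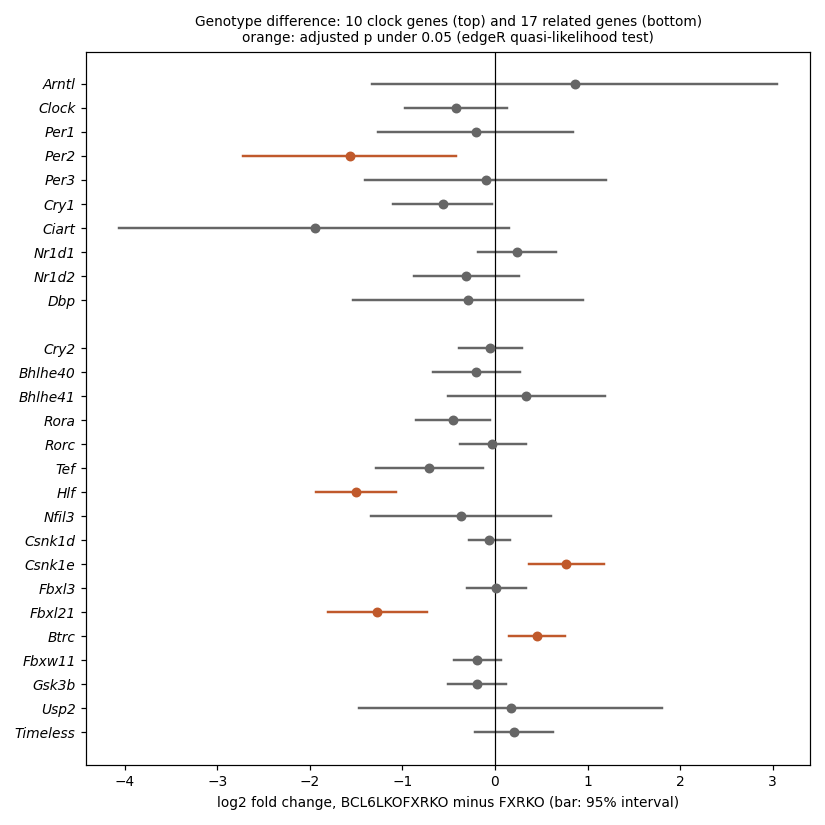
Log2 fold change (BCL6LKOFXRKO minus FXRKO, horizontal axis) with its unadjusted 95% interval for the 10 clock genes (top) and 17 related genes (bottom), orange where the adjusted p was under 0.05. *Per2* at -1.57 is the only called gene of the top block, and *Arntl* and *Ciart* have the widest intervals.

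Within a genotype the members spread more than most genes. The SD of log2 CPM around the genotype means had a median of 0.77 over the members and 0.24 over all tested genes. It was 1.44 for *Ciart* and 1.41 for *Arntl*, above 99.9% of tested genes in both cases, 0.89 for *Per3* (above 99.2%), 0.86 for *Dbp* (99%), 0.82 for *Per2* (98.7%) and 0.72 for *Per1* (97.8%). The other 4 lay lower, *Clock* at 0.46, *Nr1d2* at 0.43, *Nr1d1* at 0.34 and *Cry1* at 0.34 (above 72.7% of tested genes). Low counts widen this measure, and *Arntl* and *Cry1* had the fewest counts on average. The highest liver stood 5.94-fold above the lowest in FXRKO and 13.7-fold in BCL6LKOFXRKO for *Arntl*, and 8.12-fold and 11.2-fold for *Ciart*.

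**Figure D3:**
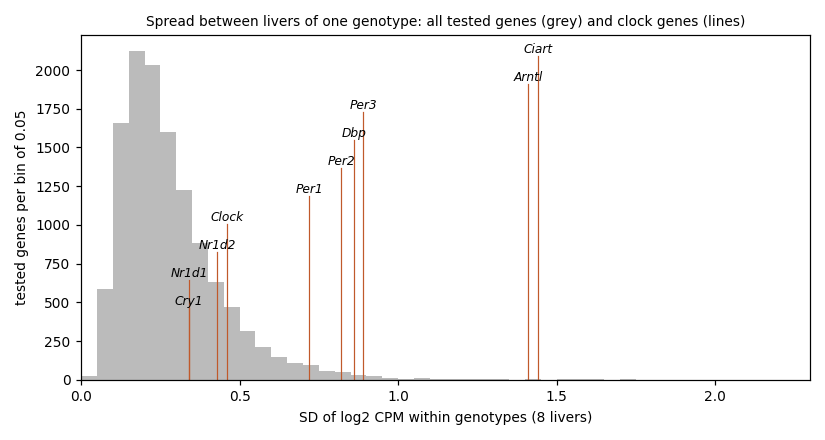
Number of tested genes (grey bars, bins of 0.05) by the SD of log2 CPM within genotypes over the 8 livers, with a line for each clock gene whose height has no meaning. *Arntl* at 1.41 and *Ciart* at 1.44 lie far to the right of the bulk, and *Cry1* and *Nr1d1*, both at 0.34, lie inside it.

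The livers of a genotype that were high in *Arntl* and *Clock* were low in *Dbp*, *Per1*, *Per3* and *Ciart*, in both genotypes. *Nr1d1* did not show this reversal. There are 12 pairs of livers of the same genotype. *Clock* ordered the livers as *Arntl* did in 12 of 12 pairs, and *Dbp* ordered them the opposite way in 12 of 12. The order was also opposite to *Arntl* in 11 pairs for *Per1* and *Per3*, 10 for *Per2* and *Ciart*, 9 for *Nr1d2*, 8 for *Cry1* and 5 for *Nr1d1*. Of 12339 other tested genes, 25 (0.203%) were opposite to *Arntl* in all 12 pairs, 43 (0.348%) had its order in all 12, and 751 (6.09%) were opposite in 10 or more, which 5 of the 9 other members were. The pairs share livers and are not independent, so these are descriptions without a test.

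**Figure D4:**
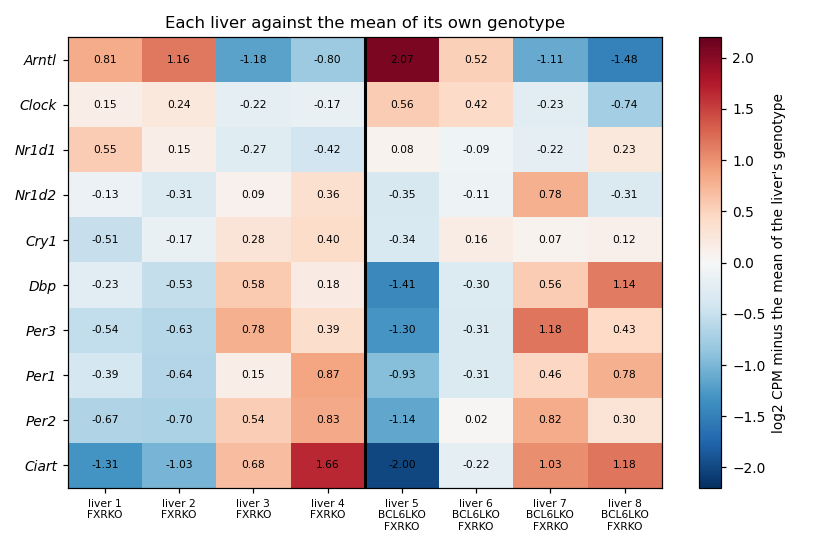
Log2 CPM of each clock gene in each liver minus the mean of that liver's genotype (colour and printed value), FXRKO livers left of the black line. *Arntl* and *Clock* are above their genotype means in livers 1, 2, 5 and 6 and below in livers 3, 4, 7 and 8, and *Dbp*, *Per3*, *Per1* and *Ciart* show the reverse in all 8 livers.

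Per kilobase of transcript, *Dbp* and *Nr1d1* were the most abundant members, with medians of 69.3 and 52 RPKM over the 8 livers. *Nr1d2* followed at 11.1 RPKM, then *Per1* at 9.64, *Ciart* at 5.44, *Per3* at 3.47, *Per2* at 2.62, *Clock* at 2.06, *Cry1* at 1.2 and *Arntl* at 1.03. Ranges over the 8 livers overlapped for every neighbouring pair in this order other than *Nr1d1* (34.4 to 67.7 RPKM) and *Nr1d2* (7.81 to 17.2 RPKM). The RPKM ratio of *Dbp* to *Arntl* within a liver was 40.3, 25.5, 328 and 182 in FXRKO livers 1 to 4. In BCL6LKOFXRKO livers 5 to 8 it was 3.74, 24.3, 150 and 301. Livers 3, 4, 7 and 8 had the 4 highest ratios. These rest on only 9, 14, 15 and 12 *Arntl* counts, so counting error makes them imprecise.

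The sample titles carry a number for each liver, and what it marks is not given in the labels. Placed from the lowest number to the highest, the livers ran 5, 1, 6, 2, 7, 3, 8 and 4, so the 2 genotypes alternated. BCL6LKOFXRKO livers held places 1, 3, 5 and 7 and FXRKO livers places 2, 4, 6 and 8. The order was therefore not balanced between the genotypes. *Arntl* in that order was at 14.9, 4.47, 4.98, 5.75, 1.46, 0.967, 1.09 and 1.32 CPM, with all values of the first 4 places above all of the last 4. *Ciart* was at 0.806, 5.72, 3.28, 7, 8.08, 23.4, 8.99 and 46.5 CPM, and *Per1* at 21.2, 36.4, 32.6, 30.5, 55.8, 53.1, 70 and 87.6 CPM. The ratio of *Dbp* to *Arntl* in the same order was 3.74, 40.3, 24.3, 25.5, 150, 328, 301 and 182.

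A fit with the place of the title number (1 to 8) as a covariate beside genotype was added after this order had been seen in the members' own values, so its results for the members are not independent evidence. The covariate was called for 4 of 12340 genes (0.0324%), and 2 of these were members. *Ciart* had the smallest p of all genes, with a slope of 0.53 log2 units per place (SE 0.06, adjusted p = 0.00854), and *Per1* the next, with 0.26 (SE 0.03, adjusted p = 0.0409). The other two were *Ypel2* and *Urml*, named because the count is small. *Arntl* was ninth with a slope of -0.55 (SE 0.09) but missed the threshold (adjusted p = 0.0618). At an unadjusted p under 0.05, 8 of 10 members passed against 7.6% of all tested genes, *Nr1d1* and *Nr1d2* being the exceptions. Without liver 5, whose title number is the lowest and lies farthest from the others, the covariate was called for 0 of 12424 genes in edgeR (858 at an unadjusted p under 0.05, with 6 members among them), and *Ciart* still had the smallest p (adjusted p = 0.0545).

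**Figure D5:**
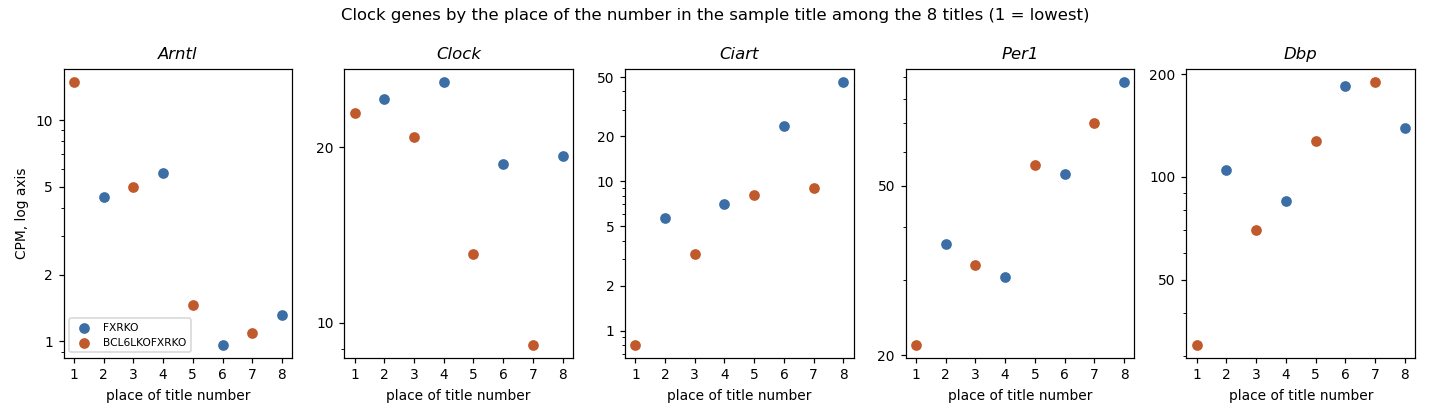
CPM on a log axis of 5 clock genes against the place of the liver's title number among the 8 titles, blue for FXRKO and orange for BCL6LKOFXRKO. *Arntl* is at 14.9 CPM at place 1 and 1.32 at place 8, *Ciart* at 0.806 and 46.5, and the genotypes alternate along the axis.

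Beside that covariate, the genotype term called 3 of 10 members, all lower in BCL6LKOFXRKO livers, against 29.6% of all tested genes. *Per2* had a log2 fold change of -1.26 (SE 0.25, adjusted p = 0.00288), *Ciart* -1.34 (SE 0.26, adjusted p = 0.00224) and *Clock* -0.63 (SE 0.18, adjusted p = 0.0178). *Arntl* stood at -0.01 (SE 0.39, adjusted p = 0.983) and *Dbp* at -0.26 (SE 0.30, adjusted p = 0.549). Without liver 5 the same 3 members were called, with adjusted p of 0.00629 for *Per2*, 0.00448 for *Ciart* and 0.0275 for *Clock*.

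A wider list of 20 clock-related genes was counted next, of which 17 were tested and *Npas2*, *Arntl2* and *Rorb* were not (0 to 19 counts per liver). Of the 17, 2 were called lower and 2 higher (23.5%, against 29.7% of all tested genes), and their median log2 fold change was -0.06. *Hlf*, a D-box binding relative of *Dbp*, was at 35.7, 52.1, 55.7 and 64 CPM in FXRKO livers and 13.5, 18.3, 23.9 and 17.6 CPM in BCL6LKOFXRKO livers, a log2 fold change of -1.50 (95% interval -1.93 to -1.07, adjusted p = 0.00012). *Fbxl21*, which encodes an F-box protein that acts on cryptochromes, was lower (4.37, 2.87, 4.84 and 4.45 against 1.91, 1.33, 1.66 and 1.91 CPM, log2 fold change -1.27, adjusted p = 0.002). The genotypes did not overlap for either gene.

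Of the other called genes of that list, *Csnk1e*, a casein kinase that phosphorylates PER proteins, was higher (7.91, 5.25, 4.73 and 5.3 against 9.67, 9.59, 11.3 and 9.17 CPM, log2 fold change 0.77, adjusted p = 0.00796). *Btrc*, a ubiquitin ligase subunit for PER proteins, was also higher (15.1, 15, 15.9 and 16 against 21.8, 16.4, 21.5 and 25.2 CPM, log2 fold change 0.45, adjusted p = 0.0288), and its call was lost without liver 1 (adjusted p = 0.0661), 2 (0.0736), 3 (0.0612), 4 (0.055), 5 (0.0665), 7 (0.0529) or 8 (0.0544), and with total counts alone (0.138). *Hlf*, *Fbxl21* and *Csnk1e* were called in all 15 alternative fits. Among the 13 that were not called, log2 fold changes ran from -0.71 (*Tef*, another D-box relative, adjusted p = 0.0659) to 0.34. *Tef* was called lower in 4 of 15 alternative fits, with DESeq2 (adjusted p = 0.0201), with total counts alone (0.029), without liver 1 (0.0467) and without liver 7 (0.0214), over a range of 0.0201 to 0.152. With the title number covariate its log2 fold change was -0.57 (adjusted p = 0.0162, and 0.0421 without liver 5).

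The liver-by-liver order extended to some of these genes, named after their values were seen. *Usp2*, a deubiquitinase with a strong daily rhythm in liver, was at 15.3, 12.5, 44.8 and 70.2 CPM in FXRKO livers and 18.9, 19.3, 59.7 and 62.9 CPM in BCL6LKOFXRKO livers, opposite in order to *Arntl* in 11 of 12 pairs. *Nfil3*, a repressor at D-boxes, was at 40.1, 34.2, 12 and 13.9 CPM and 27.9, 19.5, 14.4 and 15.4 CPM, in the order of *Arntl* in 10 of 12. Livers 3, 4, 7 and 8 were the high livers for *Usp2* and the low ones for *Nfil3* in both genotypes.

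Likeness to *Arntl* and to *Dbp* over the 8 livers was read as Pearson's r of the deviations from the genotype means. The 5 highest genes for each included none of the clock genes listed here. For *Arntl* they were *Atxn7l1* (r = 0.99), *Repin1* (0.98), *Lgalsl* (0.97), *Fam241a* (0.97) and *Abtb2* (0.97), and *Clock* was number 53 of 12339 (0.91). Clock genes were among the most negative for *Arntl*. Counted from the most negative gene, *Dbp* was number 7 (r = -0.97), *Per3* 16 (-0.95), *Ciart* 18 (-0.94), *Tef* 20 (-0.93) and *Per1* 23 (-0.93). The 5 genes most like *Dbp* were *Fkbp10* (0.99), *Rab8a* (0.97), *Rdm1* (0.96), *Cyp4a10* (0.96) and *Snai3* (0.95). In FXRKO livers *Snai3* had only 1 to 5 counts and *Fkbp10* 10 to 18, so counting error weighs on their deviations. The same limit holds for the *Arntl* list. Over the 8 livers *Fam241a* had 10 to 24 counts, *Atxn7l1* 24 to 52 and *Arntl* itself 9 to 148. *Rab8a* varied little, with an SD of log2 CPM within genotypes of 0.10. The 8 points share their libraries with every other gene, and no test was made.

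Of 14 genes that are known rhythmic outputs in liver, 1 was called higher and 4 lower (35.7%, against 29.7% of all tested genes), with a median log2 fold change of -0.22. *Avpr1a*, a vasopressin receptor, was at 37.7, 32.4, 16.8 and 22.3 CPM in FXRKO livers and 2.52, 3.88, 1.66 and 1.91 CPM in BCL6LKOFXRKO livers (log2 fold change -3.47, adjusted p = 8.66e-06). *Ppara*, the fatty acid receptor, was at 205, 264, 269 and 296 CPM and 100, 132, 177 and 112 CPM (log2 fold change -0.99, adjusted p = 0.00104). *Elovl3*, a fatty acid elongase, was at 51.9, 81.1, 38 and 4.16 CPM and had 1, 1, 0 and 0 counts in the BCL6LKOFXRKO livers (adjusted p = 0.00365), too few for a fold. *Cdkn1a*, a cell cycle inhibitor, was the gene called higher, at 11.9, 9, 1.72 and 3.97 CPM against 37.6, 29.4, 13.8 and 31.4 CPM (log2 fold change 2.09, adjusted p = 0.0229).

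Cues that can set the liver clock were read through 16 genes responsive to glucocorticoid, temperature or feeding, of which 3 were called higher and 3 lower (37.5%, against 29.7% of all tested genes, median log2 fold change -0.34). Of the 5 glucocorticoid-responsive genes, 2 were called higher and 1 lower, and *Zbtb16* and *Tat* were not called (adjusted p = 0.661 and 0.406). *Sgk1* was higher (log2 fold change 1.43, adjusted p = 0.00131), as was *Fkbp5* (1.10, adjusted p = 0.025), while *Tsc22d3* was lower (-1.92, adjusted p = 0.00926). *Cirbp*, a cold-inducible RNA binding protein gene, was higher (1.01, adjusted p = 0.0331), though its livers of the 2 genotypes overlapped. *Hspa1b*, a heat shock gene, was lower (-1.74, adjusted p = 0.0342). The other temperature-responsive genes, *Rbm3*, *Hspa8*, *Hsph1* and *Hspa1a*, were not called (adjusted p = 0.322, 0.35, 0.0575 and 0.053). *Pck1*, the fasting-induced enzyme of gluconeogenesis, was lower (-1.61, adjusted p = 0.00215). *Tsc22d3* was at 65.4, 91.6, 165 and 229 CPM in FXRKO livers and 42.7, 43.2, 25.2 and 35.1 CPM in BCL6LKOFXRKO livers.

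Markers of the cell types in these livers were counted beside these values. In bulk liver, fewer cells of a type and less RNA per cell cannot be told apart. Stellate cell and fibroblast markers were called higher for 5 of 8, against 16.2% of all tested genes called higher, and their summed level was 208 to 292 CPM in FXRKO livers and 437 to 542 CPM in BCL6LKOFXRKO livers. Cholangiocyte markers were called higher for 2 of 5 tested (58.1 to 84.1 against 91.2 to 155 CPM summed, *Krt7* and *Cftr* at 0 to 17 counts). Most of that sum was *Spp1*, and without it the sums were 17.5 to 30.4 and 24.9 to 32.4 CPM and overlapped, with *Sox9* at a log2 fold change of -0.81 (adjusted p = 0.0773). Macrophage markers were called higher for 2 of 7 (367 to 524 against 493 to 803 CPM) and endothelial markers for 1 of 6 (133 to 185 against 173 to 230 CPM). None of the lymphocyte markers in the table passed the filter, with 0 to 26 counts per liver. Of 8 hepatocyte markers, *Alb* and *Asgr1* were called higher and *Ttr* and *Serpina1c* lower, all 8 being well above 0 in every liver (55647 to 69196 against 145587 to 162456 CPM summed, most of it *Alb*). The part of cell composition in the genotype values of *Per2* and the other clock genes was not tested.

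Reads were counted over exons without a stated strand, so members that share exon bases with a neighbour on the other strand may include its reads. *Nr1d1* shares 263 exon bases with *Thra*, a thyroid hormone receptor gene, which was at 18.8 to 37.2 CPM in FXRKO livers and 27.9 to 49.7 CPM in BCL6LKOFXRKO livers (log2 fold change 0.34, adjusted p = 0.285). *Dbp* shares 539 exon bases with *Sphk2*, a sphingosine kinase gene, at 87.1 to 122 and 68.2 to 122 CPM (log2 fold change -0.27, adjusted p = 0.239). *Arntl* shares 33 exon bases with *Gm45355*. *Ciart* lies inside the span of *C920021L13Rik*, which had 3 to 12 counts per liver, but no shared exon bases were found for *Ciart*. How many reads of *Nr1d1*, *Dbp* and *Arntl* come from the neighbours cannot be told apart.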

How the data were processed

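Polyadenylated liver RNA of 8 male mice was sequenced as 100 bp single-end reads from a stranded kit. Per the labels and the submitters' processing notes, the authors aligned reads to mm10 with STAR 2.5.2, keeping uniquely mapped reads, and deposited raw counts per gene over exons, made with HOMER 4.10 without a strand option. The paper's methods name DESeq2.

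The test was edgeR 4.0.16 under R 4.3.3 (filterByExpr, TMM, robust quasi-likelihood test) without covariates over 12340 genes, with Benjamini-Hochberg adjustment and a threshold of 0.05. CPM use TMM factors, and RPKM divide them by the table's transcript length. Deviations are log2 CPM (prior count 2) minus the genotype mean. Exact permutation tests were two-sided. The fits were tested on simulated data. The members and lists were chosen with earlier results of these data known. Named genes were all members, called genes of the related clock list, the 3 called genes in each direction with the smallest adjusted p of the output and cue lists, opposite-strand neighbours and the 5 genes most like *Arntl* and *Dbp*, with exceptions stated where they occur.

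Alternatives were RLE factors, total counts alone, the 50 most counted genes left out before TMM, DESeq2 1.42.0, no filter, a minimum of 10 counts per liver, limma 3.58.1 voom with quality weights, and each liver left out. The title number covariate, with and without liver 5, was added after seeing the data. With totals of 7586241 to 11839503 per liver, the members with the lowest counts in any liver were *Ciart* (8 to 491), *Arntl* (9 to 148) and *Cry1* (25 to 66). Promoter sequences are from RefSeq, GRCm38.p6.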

Additional observations from a re-analysis of the deposited data

Results flagged for a closer look

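*Nr1d2* in BCL6LKOFXRKO liver 7 stood far from the other livers of its genotype, at 79.6 CPM against 36.2 to 42.7 CPM, a gap of 0.849 of the group's whole range. Of 34 groups of 4 livers examined, this was the only one past the 95% limit, and chance alone gives about 1.7. In the same liver *Per3* was at 44 CPM, the highest of the 8 livers.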

How the results depend on the processing

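*Clock*, *Per2*, *Cry1*, *Ciart*, *Nr1d1* and *Nr1d2* kept their direction in every alternative that could test them, *Ciart* and *Arntl* being untested with at least 10 counts in every liver. Members called (1 of 10) became 2 with total counts alone, 0 with no filter and 0 with limma voom, and ran from 0 to 2 with each liver left out. Over the livers left out, log2 fold changes ran from -0.35 to 1.30 for *Arntl*, -0.51 to 0.17 for *Per1*, -0.60 to 0.20 for *Per3* and -0.74 to 0.01 for *Dbp*, so these 4 changed sign. With the title number covariate, chosen after seeing the data, 3 members were called, also without liver 5. There *Arntl* was at -0.01 (-0.30 without liver 5), *Per1* at 0.01 (0.06) and *Per3* at 0.11 (0.24). Output genes called (5) became 3 with no filter and 3 with voom, and ran from 3 to 6 with a liver left out. Cue genes called (6) became 3 with no filter and 10 with DESeq2. Over all genes, 1994 were called higher and 1665 lower, and with total counts alone 1404 higher and 2949 lower. The causes of these changes were not tested. The labels give the genotypes no shared replicate numbers. Some title numbers are consecutive across genotypes, and a fit with such neighbours as blocks was not run. Low counts limit the precision of single livers most for *Ciart*, *Arntl* and *Cry1*, while the SD between livers of a genotype was 1.44, 1.41 and 0.34.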
